A study of Caenorhabditis elegans with 2 samples.

Results

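The small nucleolar RNA (snoRNA) genes of Caenorhabditis elegans that lie inside protein-coding genes were examined for signal of the T-box transcription factor TBX-8. A gene was included when the Ensembl WBcel235 annotation gives it the snoRNA biotype on a nuclear chromosome and its whole body lies within the body of a protein-coding gene, called its host. Of 346 annotated snoRNA genes, 216 met this rule and 130 lay outside protein-coding genes. The host was on the same strand for 183 of the 216 and on the opposite strand only for 33. A single same-strand gene also had a host on the other strand. The 216 genes had 191 distinct hosts.

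TBX-8 was mapped by chromatin immunoprecipitation followed by sequencing (ChIP-seq) with an antibody against GFP in whole C. elegans embryos of both sexes and mixed stage. The antibody label of both samples names tbx-8. The strain, RW10470, carries st10470, in which tbx-8 is fused at its C terminus to TY1, EGFP and 3xFLAG, together with unc-119(+), in an unc-119(ed3) background. Embryos were obtained by egg bleaching and had a labelled age of 2.5 hours. There were 2 biological replicates of this 1 group, with no second genotype or treatment, so every comparison is among genes, among regions or between the replicates. Whole embryos were used, so the cells in which a region was bound cannot be told apart, and strain RW10470 is 1 transgenic line.

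snoRNAs are short nuclear RNAs that guide chemical modification of ribosomal RNA. Box C/D snoRNAs direct 2′-O-methylation by fibrillarin and box H/ACA snoRNAs direct pseudouridylation by dyskerin. In vertebrates most are cut out of introns of host transcripts, whereas in C. elegans a number of snoRNA genes, intronic ones included, have promoters of their own that resemble those of tRNA genes, with an A box and a B box recognised by the RNA polymerase III factor TFIIIC. TBX-8 acts together with its relative TBX-9 in shaping the embryo.

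The sequences just before the snoRNA genes with the highest signal are shown first, because the location of the signal is described relative to them. Each is the 110 bases before the annotated 5′ end of the snoRNA gene, read 5′ to 3′ on its strand from the NCBI RefSeq copy of WBcel235, the assembly also called ce11. Capitals mark matches to an A box word, TGGNNNANNGG, or a B box word, GTTCNANNC. These 2 words were chosen after the sequences had been seen. C51F7.3 shares the highest region of the set, T03F7.8, Y43F8C.22, M106.6, C04G6.12 and T24H7.6 hold both words, ZK994.7 has high signal and holds neither, and R151.11, in the ribosomal protein gene rpl-6, is shown as a gene without a peak. The window of C51F7.3 is chrV:12303598-12303707, plus strand, that of T03F7.8 is chrV:11314148-11314257, plus strand and that of Y43F8C.22 is chrV:19643188-19643297, minus strand. The window of M106.6 is chrII:10840207-10840316, plus strand, that of C04G6.12 is chrII:5105232-5105341, minus strand and that of T24H7.6 is chrII:6248607-6248716, plus strand. The window of ZK994.7 is chrV:8500469-8500578, plus strand and that of R151.11 is chrIII:7208503-7208612, plus strand.
C51F7.3: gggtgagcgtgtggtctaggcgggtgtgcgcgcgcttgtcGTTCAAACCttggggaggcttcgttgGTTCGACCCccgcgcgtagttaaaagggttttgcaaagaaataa
T03F7.8: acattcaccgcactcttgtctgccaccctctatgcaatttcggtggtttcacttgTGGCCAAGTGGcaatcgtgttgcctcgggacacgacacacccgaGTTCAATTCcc
Y43F8C.22: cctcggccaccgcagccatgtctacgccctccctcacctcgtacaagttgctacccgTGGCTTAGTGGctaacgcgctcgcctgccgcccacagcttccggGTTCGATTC
M106.6: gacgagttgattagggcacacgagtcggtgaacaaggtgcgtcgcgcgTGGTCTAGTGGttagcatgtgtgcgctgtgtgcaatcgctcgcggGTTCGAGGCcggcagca
C04G6.12: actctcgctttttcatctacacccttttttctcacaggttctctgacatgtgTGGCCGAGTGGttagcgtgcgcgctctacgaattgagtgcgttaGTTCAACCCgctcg
T24H7.6: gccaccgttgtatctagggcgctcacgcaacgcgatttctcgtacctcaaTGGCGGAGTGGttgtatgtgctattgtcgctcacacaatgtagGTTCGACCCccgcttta
ZK994.7: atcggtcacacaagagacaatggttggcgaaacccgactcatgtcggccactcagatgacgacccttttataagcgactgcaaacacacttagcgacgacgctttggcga
R151.11: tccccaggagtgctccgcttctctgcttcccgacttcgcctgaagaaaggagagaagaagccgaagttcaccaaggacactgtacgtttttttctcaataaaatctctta

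Genes with the box words of either kind of guide RNA were among those with signal. C51F7.3 (chrV:12303708-12303783, plus strand), shown here in full, holds the box C word TGATGA and the box D word CTGA, in capitals, near its ends. Y43F8C.22 (chrV:19643050-19643187, minus strand), also shown in full, ends with box ACA followed by 3 bases, as H/ACA snoRNAs do.
C51F7.3: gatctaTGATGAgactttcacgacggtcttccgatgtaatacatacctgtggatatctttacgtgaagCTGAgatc
Y43F8C.22: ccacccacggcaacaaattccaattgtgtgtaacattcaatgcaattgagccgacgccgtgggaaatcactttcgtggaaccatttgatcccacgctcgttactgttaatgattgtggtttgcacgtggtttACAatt

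A thresholded list of 521 regions, called peaks, was deposited beside a longer list from the pooled reads (16355 regions) and one from each replicate (24167 and 20865 regions). The longer lists hold background on purpose. Each region has a signal, a value that the authors' peak caller gave and that is not scaled between lists, and a summit, its position of highest signal. A snoRNA gene was said to have a peak or region when a summit lay within 200 bp of the gene, and its signal is that of the highest such region. The peaks were the 521 pooled regions of highest signal, and they were chosen on both replicates, so agreement between the replicates was favoured in advance. Read numbers are not part of the lists, and depth is therefore unknown.

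TBX-8 peaks lay beside 28 of the 216 hosted snoRNA genes (12.96%, 95% Clopper-Pearson interval 8.79% to 18.2%). On the same strand as the host there were 22 of 183 (12.02%, 7.69% to 17.6%), and on the opposite strand 6 of 33 (18.2%, 6.98% to 35.5%). The 2 intervals overlap. Among all 346 snoRNA genes the share was 14.7%, and among all 46890 annotated nuclear genes it was 1.61%. snoRNA genes outside protein-coding genes had a peak in 23 of 130 cases (17.7%, 11.6% to 25.4%), an interval that overlaps that of the hosted genes. The 2 sets differed more among genes with a low WormBase identifier number, as given below. Among other hosted RNA genes, 63 of 290 tRNA genes (21.7%) and 81 of 3393 genes of the general ncRNA class (2.39%) had one. The intervals cover counting error only. No test between classes was made, because genes within 1 pair of libraries are not replicates.

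Gene length differs between these classes and gives longer genes more room for a summit. The median length was 127 bp for hosted snoRNA genes, 135 bp for the others, 73 bp for hosted tRNA genes, 139 bp for hosted ncRNA genes and 196 bp for all genes. No tRNA, snRNA, rRNA or other snoRNA gene outside the set lay within 200 bp of the summit at any of the 28.

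**Figure D1:**
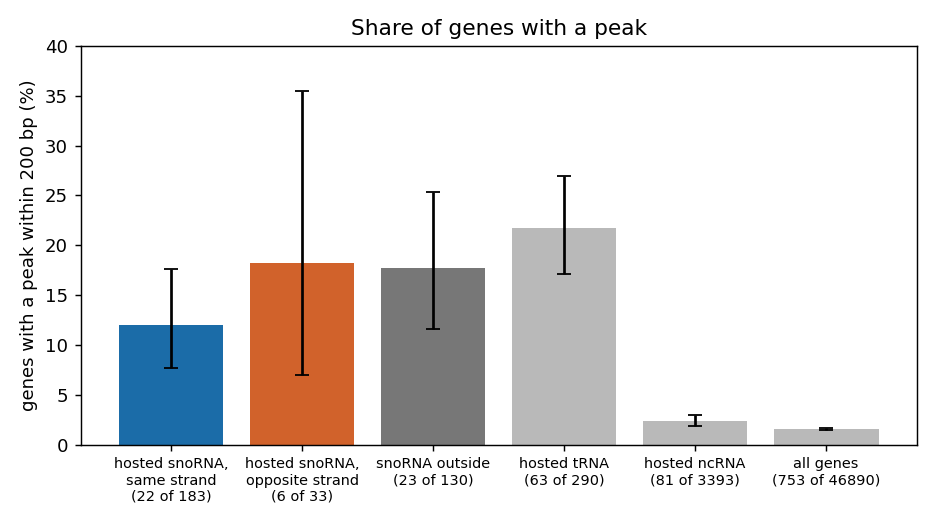
The bars give the percent of genes with a peak within 200 bp for 6 classes of genes, with 95% Clopper-Pearson intervals and the counts under each bar. Hosted snoRNA genes on either strand, snoRNA genes outside hosts and hosted tRNA genes lie between 12.02% and 21.7%, and hosted ncRNA genes and all genes lie at 2.39% and 1.61%.

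Weaker regions were more widespread. A pooled region of any strength lay beside 65 hosted snoRNA genes (30.1%, 24.1% to 36.7%), against 20.9% of all annotated genes, and beside 52 of 130 snoRNA genes outside (40%). Of the 65, 28 had a peak and 37 did not. Replicate 1 had a region at 71 genes, replicate 2 at 65 and both at 49. No list held a region at 126 of the 216 (58.3%). Absence from these lists does not show absence of signal, since regions below the callers' cutoffs are not in them. The 521 pooled regions of lowest signal lay beside 2 of the 216 genes (0.926%). The matching shares of all annotated genes, for these regions and for the replicate lists, are not given here. These counts therefore cannot be set against a background.

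Many of the peaks at hosted snoRNA genes ranked high in the pooled list, with ranks from 3 to 473 and a median of 53. At the 23 snoRNA genes with a peak outside hosts the ranks ran from 1 to 442, with a median of 83. The 28 genes had 29 distinct peaks, 5.57% of the 521, since C51F7.3 and C51F7.4 share one and T03F7.8 and D1046.6 have 2 each. Of the 25 highest peaks in the pooled list, 8 lay at 9 of these genes, and the 100 highest lay at 17. The median pooled signal at the 28 genes was 187 (range 78.6 to 471), against 101 for all 521 peaks and 99.7 for peaks not at a hosted snoRNA gene. It was 178 for the 22 same-strand genes, 208 for the 6 opposite-strand genes and 167 for the 23 snoRNA genes with a peak outside hosts. Signal is part of how peaks were chosen, so these medians describe the peaks and were not tested.

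The highest signal lay in frm-7, which encodes a FERM domain protein. Its region had a pooled signal of 471, 249 in replicate 1 and 221 in replicate 2, and ranked 3, 2 and 3 in those lists. The summit was 72 bp before C51F7.3 and inside C51F7.4, a second annotated snoRNA gene on the same strand that lies within the window printed for C51F7.3. The 2 genes therefore share 1 measurement, and the B box words of the printed window lie inside C51F7.4. C51F7.3 is intronic, while C51F7.4 overlaps an exon of frm-7.

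T03F7.8 lies in cutl-18, a cuticlin-like gene, on the opposite strand. Its signal was 384 in the pooled list, 194 in replicate 1 and 191 in replicate 2. The summit lay 46 bp before the gene, inside the A box word printed for it and near the 3′ end of that word. ZK994.7, in the peroxidasin gene pxn-1, had 323, 156 and 169 in the same lists. Apart from C51F7.4, it was the highest-ranking gene with neither word before it. Its summit lay 1 bp before the gene in the pooled list, and 21 bp before and 20 bp after its start in the replicates.

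Y43F8C.22, in Y43F8C.7, had a pooled signal of 291, with 168 in replicate 1 and 121 in replicate 2. M106.6 lies in mix-1, which encodes an SMC subunit of condensin and of the dosage compensation complex, and had 260, 148 and 115. Both hold the A box and the B box word, and both summits lay between these words, 29 and 24 bp before the gene.

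C04G6.12 lies on the opposite strand of the MAP kinase gene mpk-2, with 249 in the pooled list, 134 in replicate 1 and 113 in replicate 2. C05D2.15, in the MADF domain gene madf-11, had 248, 143 and 103. All of these genes ranked within the 31 highest regions of each replicate.

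F38E11.14, in cng-3, a cyclic nucleotide-gated channel gene, had a pooled signal of 236, with 127 in replicate 1 and 107 in replicate 2. C10C6.8, in the cation-transporting ATPase gene catp-8, had 223, 134 and 91.5. D1046.6, in cfim-2, a gene for a pre-mRNA cleavage factor subunit, had 221, 129 and 93.3. The summits at F38E11.14 and D1046.6 also lay near a protein-coding transcript start, as defined below. At C10C6.8 and D1046.6 replicate 2 ranked the region lower (52 and 49) than replicate 1 did (20 and 23), and at F38E11.14 the ranks were 27 and 26.

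B0334.12 was the exception in position. It lies on the opposite strand of twk-5, a potassium channel gene, and had a signal of 217 in the pooled list, 127 in replicate 1 and 92.4 in replicate 2. Its summit lay 158 bp from its 5′ end, which is 89 bp beyond its 3′ end, and 158 and 188 bp from the 5′ end in the replicates. It was the 1 gene of the 28 with the summit downstream.

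The other named genes lay between 198 and 92.5 in the pooled list. Above 150 were ZK484.9, opposite to the ABC transporter gene haf-9 (198, 90.5 and 103 in the pooled list, replicate 1 and replicate 2), T24H7.6 in T24H7.2 (191, 109 and 80.9), C27H6.5 in unc-41, which encodes a stonin of synaptic vesicle recycling (183, 105 and 78.6), F55A11.10 in F55A11.6 (172, 84.8 and 84.0), T08B2.13 in the phenylalanyl-tRNA synthetase gene fars-1 (169, 88.1 and 77.0) and Y38F2AR.14 in Y38F2AR.12 (150, 90.1 and 59.2). Then came C27H5.9, opposite to pdl-1 (140, 69.0 and 70.9), F11A10.9 in the RNA-binding protein gene rbm-34 (138, 90.4 and 50.0), C14C10.8 in ril-2 (122, 68.5 and 51.6) and Y37E3.20 in pcyt-2.1 (121, 59.6 and 49.2). T04A8.17, opposite to ppat-1, had 107, 42.6 and 61.8, W08G11.6 in W08G11.3 had 104, 59.9 and 42.5, and Y71F9AM.7 in the Golgi complex gene cogc-3 had 92.5, 51.4 and 45.6. In each of these the region was found in both replicates, and T04A8.17 ranked 562 in replicate 1, below the 521 highest.

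At the threshold the replicates differed more. K11C4.6, in the beta-spectrin gene unc-70, had a pooled signal of 88.8, with 70.4 (rank 147) in replicate 1 and 21.2 (rank 5004) in replicate 2. F39B2.14, in tmem-107, had 88.8, 59.3 and 30.3, and ranked 1154 in replicate 2. R166.7, in mnk-1, which encodes a MAP kinase-interacting kinase, had 78.6, 37.7 (rank 868 in replicate 1) and 45.4. Just below the threshold were R12E2.17 in the proteasome gene rpn-8 (74.2 in the pooled list, rank 553), W10C8.17 in the TCF factor gene pop-1 (70.5, rank 647) and Y71D11A.7 in acsd-1 (70.5, rank 648). In the 37 genes with a pooled region but no peak, the median signal was 38.6 (range 27.5 to 74.2).

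**Figure D2:**
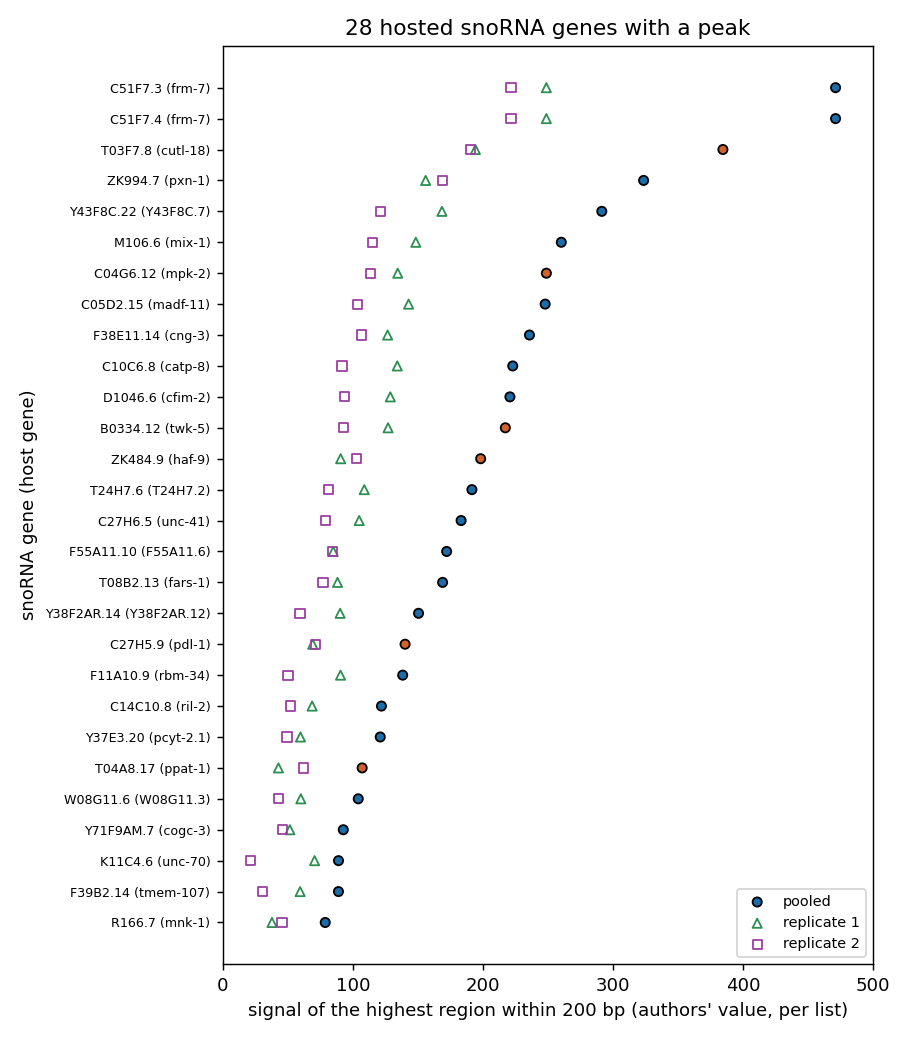
Each row is 1 of the 28 hosted snoRNA genes with a peak, with its host in brackets; the x axis gives the authors' signal in the pooled list (filled circles, blue for a host on the same strand and orange for the opposite strand), replicate 1 (triangles) and replicate 2 (squares). Pooled values run from 78.6 to 471, and lists are not scaled to each other, so pooled and replicate values are compared by order only.

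Both replicates ranked most of these genes high. Of the 28 genes, 26 were among the 521 highest regions of replicate 1, 26 among those of replicate 2 and 24 among both. Of the 188 genes without a peak, 1 was among the highest 521 of replicate 1 and 2 were among those of replicate 2. The highest region beside a gene was taken in each replicate list on its own, which gave 48 distinct pairs. Across these, log2 signal had a Spearman's rho of 0.90 and a Pearson's r of 0.91. Within the 27 pairs at peaks the values were 0.91 and 0.83, and within the 21 others 0.48 and 0.54. At genes with a pooled region but no peak, the summits of a pair were 9 to 424 bp apart. Some of those pairs may therefore join different regions. These values are across regions of 1 pair of libraries that were prepared alike, and the regions are not replicates.

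The 1 gene high in replicate 1 without a peak was F54E7.10 in rps-12, a gene with box ACA near its end, named here after its values were seen. Its signal was 62.2 in replicate 1 (rank 201) and 33.8 in the pooled list, and replicate 2 held no region there. The 2 genes high in replicate 2 without a peak were F25H5.9 in the pyruvate kinase gene pyk-1 (39.1, rank 494) and H04D03.5, opposite to smrd-1 (39.1, rank 493), also named after their values were seen. In replicate 1 they had 37.6 and 28.0.

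**Figure D3:**
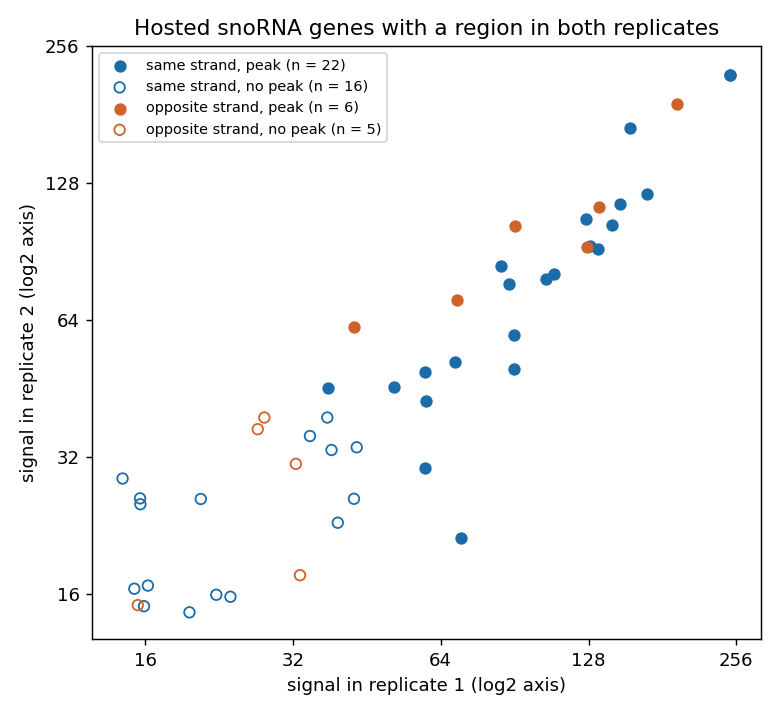
Points are hosted snoRNA genes with a region in both replicate lists, with signal in replicate 1 on the x axis and in replicate 2 on the y axis, both on log2 scales; filled points have a peak and colours give the strand of the host. Genes with a peak rise along the diagonal, with 1 point, K11C4.6, at 70.4 and 21.2.

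The summits lay just before the snoRNA genes. Of the 28 summits, 22 (78.6%) were upstream of the gene on its own strand, 5 (17.9%) inside it and 1 downstream, and 21 (75%, interval 55.1% to 89.3%) fell 1 to 80 bp before the gene. The median position was 29.5 bp before the 5′ end (range 100 bp before to 158 bp after). At the 23 snoRNA genes outside hosts the median was 46 bp before, with 21 upstream and 17 within 1 to 80 bp. At the 37 hosted genes with a weaker region the summits were spread, with 18 upstream, 10 inside and 9 downstream, 8 of them within 1 to 80 bp before the gene, and a median 3 bp after the 5′ end.

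The replicates placed the summits less sharply. The median position was 32 bp before the gene in replicate 1 and 33 bp before in replicate 2, with 20 of 28 upstream in each, and the 2 summits of a gene were 0 to 68 bp apart. Taken over the 521 highest regions of a single replicate, the number of genes with the summit inside was 6 in replicate 1 and 9 in replicate 2, against 5 in the pooled list.

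**Figure D4:**
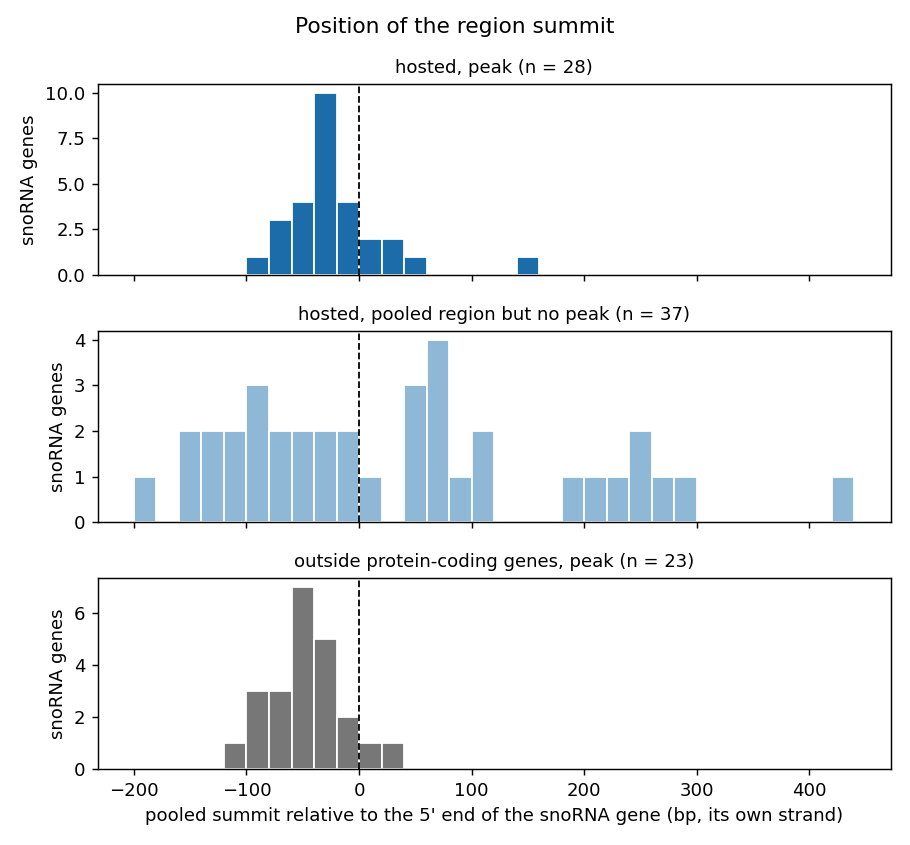
Histograms of the pooled summit position relative to the 5′ end of the snoRNA gene, in bp along its own strand and in bins of 20 bp, for hosted genes with a peak (top, n = 28), hosted genes with only a weaker region (middle, n = 37) and genes outside hosts with a peak (bottom, n = 23). The top and bottom sets pile up just before 0 (medians -29.5 and -46), and the middle set is spread on both sides (median 3).

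Words of the A box and B box were found where these summits lay. Words were searched in the 150 bp before each gene on its own strand. The exact B box word GTTCGA was before 8 of the 28 genes with a peak and 7 of the 188 without, and before 2.22% of all protein-coding genes and 2.27% of hosted ncRNA genes in windows of the same length. The short A box word TGGC, which is frequent by its length, was before 22 of 28 and 60 of 188, and before 20.3% of protein-coding genes and 31.2% of hosted ncRNA genes. The longer B box word GTTCNANNC, which overlaps GTTCGA in part of its matches, was before 10 of 28 and 10 of 188 (2.15% of protein-coding genes). The longer A box word TGGNNNANNGG, which can overlap TGGC, was before 12 of 28 and 10 of 188 (0.936% of protein-coding genes).

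At least 1 of the 2 longer words was before 17 of 28 genes with a peak and 18 of 188 without, against 3.06% of protein-coding genes and 4.54% of hosted ncRNA genes. Read the other way, 17 of the 35 hosted genes with such a word had a peak (48.6%) and 11 of the 181 without one did (6.08%). Outside hosts the counts were 15 of 22 and 8 of 108. On the strand opposite to the gene, the longer B box word was before 1 of 28 genes with a peak and 3 of 188 without. The longer A box word there was before 3 of 28 and 2 of 188, so it too was more frequent at genes with a peak. The longer words were chosen with these genes in view, so their counts describe the genes and are not a test. No match says only that these letters are not in this window.

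Both longer words together stood before 7 hosted genes, 5 with a peak and 2 without, and before 0.0300% of protein-coding genes. The 5 were T03F7.8, Y43F8C.22, M106.6, C04G6.12 and T24H7.6. In these 5 the first bases of the 2 words were 43 to 45 bp apart, with a median of 44. The 2 without a peak, ZK546.18 in mdt-4 and H04D03.5, named after their values were seen, had the words 44 bp apart. Each had a region below the threshold, with 69.0 at ZK546.18 (rank 686) and 60.8 at H04D03.5 (rank 988).

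Across the 28 genes the A box word began a median of 58 bp before the gene (50 to 67, n = 12) and the B box word a median of 15 bp before (9 to 44, n = 10). The summit lay a median of 36 bp after the start of the A box word and 21 bp before the start of the B box word. In 4 of the 5 genes with both words it lay between their first bases, and at T24H7.6 it lay after both. Where a word matched more than once, as at C51F7.3, the match nearest the gene was used for its position. Of the 6 opposite-strand genes with a peak, 4 held at least 1 of the 2 words, as did 13 of the 22 same-strand genes. The exact B box word GTTCGA was before 0 of the 6 and 8 of the 22, and the longer B box word before 3 of the 6 and 7 of the 22. The words are on the strand of the snoRNA gene in these counts, whichever way the host is read.

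**Figure D5:**
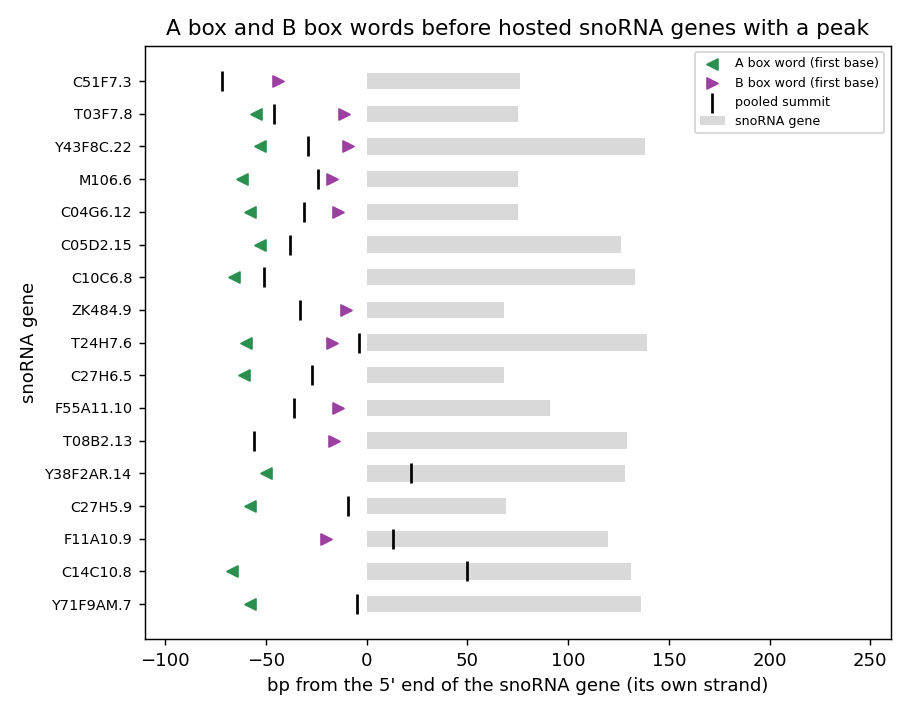
The 17 hosted snoRNA genes with a peak and at least 1 of the words TGGNNNANNGG and GTTCNANNC before them, in order of pooled signal; grey bars are the genes, triangles the first base of each word and ticks the pooled summit, in bp from the 5′ end of the gene on its own strand. A box words begin 50 to 67 bp and B box words 9 to 44 bp before the gene, and most ticks lie between or near them.

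Boxes of both snoRNA families were found in genes with a peak and in genes without one. The exact boxes C and D together were in 2 of 28 genes with a peak and 8 of 188 without. Box C was searched in the first 25 bp of the gene and the 20 bp before it. Box D was searched in the last 25 bp and the 20 bp after, and box ACA in the last 10 bp and the 20 bp after. Box ACA near the 3′ end, a word that is frequent by its length, was in 15 of 28 (53.6%) and 101 of 188 (53.7%). Within the gene alone it was in 11 of 28 and 61 of 188. Most genes with a peak have a WormBase identifier number below 100000, as given below. Among the 79 genes without a peak that also do, box ACA was in 55 (69.6%), and in 43 within the gene alone. Boxes C and D together were in 8 of these 79 (10.1%). The near-equal shares of box ACA therefore hold for all genes without a peak, not for those with low numbers. Exact words miss degenerate boxes, so these counts do not divide the genes into families.

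The words recognised by T-box proteins were looked for as well. The core GGTGTG, on either strand in the 201 bp around the summit, was at 4 of the 27 distinct highest peaks of the hosted genes (14.8%, interval 4.19% to 33.7%). It was at 45 of 492 peaks away from them (9.15%, 6.75% to 12.05%) and at 33 of the 521 lowest-ranked regions (6.33%). The intervals overlap, and median GC content was 50.2%, 46.8% and 37.8% in the same order. This search was added after the data had been seen.

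Within their bodies, the only parts searched, the hosts carried little other signal. The 28 genes lay in 27 hosts, and in 26 of these the summit was inside the host, where the only peaks were those at the snoRNA gene and its region was the highest of the host. The remaining summit, at F39B2.14, lay before the start of tmem-107. In 13 hosts the pooled list held no region in the host body other than those within 200 bp of the snoRNA gene. The highest other regions named here were 72.1 in unc-70 and 56.1 in mnk-1, hosts whose snoRNA genes were at the threshold. A host is included because its snoRNA gene has a peak, so this order was favoured by the choice.

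Intronic genes made up most of the set. A peak lay at 25 of 171 genes inside an intron of every transcript that spans them (14.6%, 9.69% to 20.8%), at 2 of 38 that overlap an exon and at 1 of 7 that are intronic in some transcripts only. The median distance to the start of the host was 1298 bp for genes with a peak and 1359.5 bp for those without. A summit from 1000 bp upstream to 200 bp downstream of a protein-coding transcript start, where a promoter could lie, was found for 8 of the 28, all on the same strand as the host. The 8 were F38E11.14, D1046.6, F55A11.10, T08B2.13, C14C10.8, Y37E3.20, Y71F9AM.7 and F39B2.14. The other 20 were 14 same-strand and 6 opposite-strand genes. Outside hosts 9 of 23 lay near a start. The share of all peaks that lie near a start is not given here, so these counts have no background.

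Ribosomal protein genes are the classical hosts of snoRNAs in animals, and 13 of them held 19 of the genes. None of the 19 had a peak (0%, interval up to 17.6%), and 2 had a pooled region, F54E7.10 and R151.11 in rpl-6 (29.8). The interval includes the share of all hosted genes, so a lower share was not detectable with 19 genes. The 4 genes in nol-56, which encodes a box C/D core protein, also had no peak.

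Genes of proteins that bind snoRNAs were read as a list, chosen with earlier results of these data known. Of 10, 1 had a peak from 1000 bp upstream to 200 bp downstream of a transcript start, against 1.70% of all 19973 protein-coding genes. That was fib-1, which encodes fibrillarin, the methyltransferase of box C/D particles, with a pooled signal of 83.3 (rank 413). Regions below the threshold stood at nol-58, another C/D core protein (36.0), snu-13, which binds the C/D kink-turn (42.1), dkc-1, which encodes dyskerin (46.7), and the H/ACA protein gene Y48A6B.3 (62.0). No pooled region stood at nol-56, at the H/ACA genes garr-1 and nola-3 or at the assembly ATPase genes ruvb-1 and ruvb-2.

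Peaks were uneven over gene length and annotation. Among genes shorter than 100 bp, 13 of 61 had a peak (21.3%), among those of 100 to 150 bp 14 of 103 (13.6%) and among longer genes 1 of 52 (1.92%). The exception was F39B2.14. Outside hosts the counts were 14 of 32, 6 of 40 and 3 of 58. WormBase gene identifiers carry a running number. Of hosted genes numbered below 100000, 25 of 104 had a peak (24.0%, interval 16.2% to 33.4%), against 3 of 112 at or above it (2.68%). Outside hosts these were 21 of 35 (60%, 42.1% to 76.1%) and 2 of 95 (2.11%). Below 100000 the intervals of the hosted and outside genes do not overlap. They cover counting error only, and the split by identifier was added after the data were seen. Shares of all annotated genes by length or identifier are not given here. Length and identifier move with the presence of a peak in both sets, and their part in the result was not tested.

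By chromosome, 10 of 39 hosted genes on V had a peak (25.6%, interval 13.0% to 42.1%), 6 of 43 on II, 5 of 36 on IV, 5 of 44 on I, 2 of 44 on III and 0 of 10 on X, which allows a share of up to 30.8%. The interval for V overlaps that of each of the other chromosomes, and C51F7.3 and C51F7.4 on V count as 2 genes with 1 peak. Shares of all annotated genes by chromosome are not given here, so these counts cannot be set against a background.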

How the data were processed

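The deposited data are region lists from ChIP-seq of TBX-8 in 2 biological replicates, which form 1 group. Per the file descriptions, the authors called peaks and background regions on each replicate and on the pooled alignments of both with a control, and deposited the regions that passed an irreproducible discovery rate threshold. The assembly is ce11, per the file descriptions. Which aligner and caller were run is not given in the sources used, so how duplicate or multiply mapped reads were treated is unknown. The deposited signal per region is the authors' value and is not scaled between lists. The deposited −log10 q-value was used to select regions at q below 0.05, and the deposited summit offset gave the summit position. Read numbers are not in the lists, so depth is unknown, and control reads and signal tracks were not used here.

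Genes came from Ensembl release 115 and sequence from the NCBI RefSeq copy of the same assembly. Regions were assigned to genes by summit distance (200 bp), with the highest taken, in Python 3.11.15 with pandas 2.3.3, NumPy 2.4.6, SciPy 1.17.1 and pyfaidx 0.9.0.4, and the assignment was tested on simulated data with planted regions. Shares have exact Clopper-Pearson intervals at 95%. No test was made, since the design has 1 group and genes are not replicates. Genes were named by rule: those with a peak in order of signal up to 25, the 3 just above and the 3 just below the threshold, their hosts and the 10 snoRNA protein genes, with exceptions marked. The genes, lists and words were chosen with earlier results of these data known. Alternatives covered the window, overlap, threshold, single replicates, neighbouring small RNA genes and protein-coding starts.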

Additional observations from a re-analysis of the deposited data

How the results depend on the processing

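The count of hosted snoRNA genes with a peak stayed within 1.5 times its value of 28 under 11 of 12 alternatives, between 20 (summits away from protein-coding starts) and 36 (pooled regions at q below 0.05), with 24 in the 260 highest peaks, 28 without replicate 1 and 27 without replicate 2. Counting only summits inside the gene left 5 of 28 genes (4 same-strand, 1 opposite-strand) and 2 of 23 outside hosts, because most summits lie before the gene. Away from protein-coding starts, 14 of 22 same-strand genes were left. Summits inside the gene numbered 6 to 9 when a single replicate was used, against 5. The median signal and the correlation of the replicates stayed close to their values (145 to 208 and 0.82 to 0.90). The splits by identifier and by intron and the longer words were added after the data were seen. Unknown depth and 1 pair of replicates limit every value, and genes missing from the lists may carry signal below the callers' cutoffs. Control reads were not analysed here.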
